A study of Mus musculus with 28 samples.

Results

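Induced neural stem cells of mouse embryonic and tail-tip fibroblast origin were compared, 8 of the 28 messenger RNA libraries of the series. Chosen by their labels, they came from 4 lines with 2 libraries each. The labels describe all 4 as miNSC of the Sox2-GFP mouse line, which reports the neural stem cell gene Sox2. A BKF line and a KMF line had been made from embryonic fibroblasts (MEF), and another BKF and KMF line from tail-tip fibroblasts of mice aged 1.0 year. In the cocktail names F stands for eSox17FNV, which is an engineered Sox17 transcription factor. The labels give the letters B, K and M without saying which factors they are. All fibroblasts had also received the doxycycline-controlled activator M2rtTA, and all lines were grown from picked colonies on Matrigel with bFGF and EGF. A line may thus descend from 1 colony and both of its libraries from 1 culture, and p-values then measure nothing wider than the library-to-library spread, which may be technical in part. Passage numbers of the 8 libraries are not given in the labels used here, and no embryonic fibroblasts were among the samples analysed.

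Neural stem cells divide, keep factors such as Sox2 and Pax6, and give rise to neurons, astrocytes and oligodendrocytes. Along the head-to-tail axis their position is marked by the clustered Hox genes, and along the dorsal-to-ventral axis by homeobox genes of the neural tube. Fibroblasts of different body sites also hold different Hox codes. Comparing lines made with the same cocktails from either source asks whether the starting cell leaves a difference in the induced cells.

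The normalised expression values of these libraries summed to between 15567772 and 15569574, so the depth of sequencing cannot be known and detection limits are not given. Between replicate libraries of a line the median absolute log2 difference was 0.084 to 0.207, largest in the tail-tip BKF line. Summed neural stem cell markers were far above those of tail-tip fibroblasts in both origins. Sums of 8 neural stem cell markers were 70212 to 133366 in embryonic-origin and 57266 to 125293 in tail-tip-origin libraries, against 623 and 669 in the libraries of tail-tip fibroblasts. Abundant genes, Fabp7 above all and then Nes, weigh most in these sums, which say little of low-valued markers such as Sox1. Of the 8 markers 1 was called higher and 4 lower in the embryonic-origin lines. Sums of 7 fibroblast markers were 40 to 557 and 85 to 333, against 184829 and 184884 in those fibroblasts. Of these fibroblast markers 1 of 7 was called, lower in the embryonic-origin lines, Pdgfrb stood at 0 in all 8 libraries, and Col1a1 was at 11 to 18 in embryonic-origin and 25 to 32 in tail-tip-origin libraries. Sums of 3 contractile markers were 66 to 125 and 66 to 96. Residual fibroblast markers were thus at a low level on both sides, and their part in the differences below was not tested.

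Differences are given as embryonic minus tail-tip origin, ± SE, on the scale of log2(normalised value + 1), a scale that makes changes of low-valued genes look smaller. A gene was called when the mean difference over both cocktails had an adjusted p under 0.05 (limma, Benjamini-Hochberg) and the difference had the same sign within BKF and within KMF. Of 16275 genes tested, 5377 (33%) had an adjusted p under 0.05 and 4849 (29.8%) were called, 2548 of them higher (15.7%) and 2301 lower (14.1%) in the embryonic-origin lines. Counts of called members of a gene list compare with these 2 shares. A difference of at least 2-fold was reached by 1149 genes (7.06%), 587 higher (3.61%) and 562 lower (3.45%). For 3278 called genes (20.1%) the 4 libraries of one origin did not overlap the 4 of the other. Past the threshold within each cocktail separately, with the same sign, were 1395 genes (8.57%), 795 higher (4.88%) and 600 lower (3.69%).

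With the mean of each line as 1 sample, 2 lines against 2, limma found 62 genes past the threshold with the same sign in both cocktails (0.381%). Of them 33 were higher and 29 lower, and 16 were also called with libraries as samples. Over all tested genes 29.8% were called, and 16 of 62 is not above that share. At an unadjusted p under 0.05 this coarser test found 2438 genes, also with the same sign in both cocktails. The counts above therefore describe these 4 lines. Of 121 called genes examined by name, 7 passed with lines as samples, namely Pax3 (adjusted p = 0.0179), Galnt13 (adjusted p = 0.018), Eif2s3y (adjusted p = 0.0187), Pax7 (adjusted p = 0.0248), Kcnj10 (adjusted p = 0.0473) and the olfactory receptor genes Olfr1437 (adjusted p = 0.0137) and Olfr1489 (adjusted p = 0.0141).

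The origin difference was not the same in both cocktails. Within BKF 2516 genes passed the threshold (15.5%), and within KMF 5256 did (32.3%). The median absolute difference over all tested genes was 0.241 within BKF and 0.353 within KMF, on the log2 scale. The test of the difference between the cocktails passed for 2132 genes (13.1%). Both counts that involve BKF moved with single libraries. Within BKF 1553 genes passed without embryonic BKF replicate 1, 1348 without embryonic BKF replicate 2 and 1362 without tail-tip BKF replicate 2. The difference between cocktails passed for 1390 genes without embryonic BKF replicate 2, 1383 without embryonic KMF replicate 2, 1374 without tail-tip BKF replicate 2 and 1355 without tail-tip KMF replicate 2. Across all tested genes the sign was the same in both cocktails for 9779 (60.1%), with a Spearman rho of 0.366 and a Pearson r of 0.25 over genes, which are not independent replicates.

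**Figure D1:**
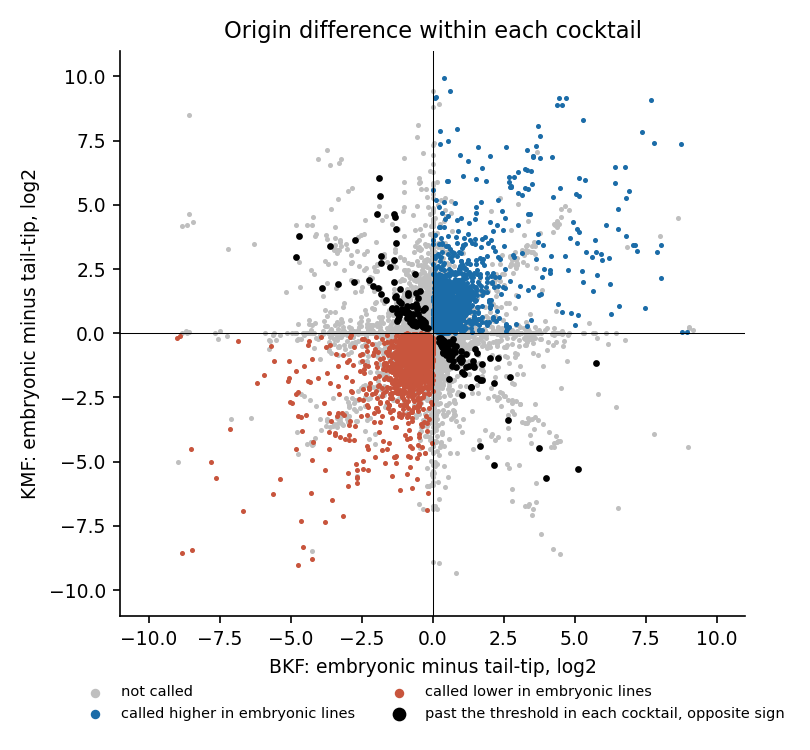
Log2 difference of embryonic minus tail-tip origin within BKF (horizontal axis) and within KMF (vertical axis), 1 point per tested gene. Blue and red points are the 2548 genes called higher and the 2301 called lower, black points the 173 genes past the threshold in each cocktail with opposite sign; called genes lie in the upper right and lower left quadrants because the call requires equal sign.

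Clustered Hox genes carried some of the largest differences. Of 9 tested genes of the HoxB cluster, 8 were lower in the embryonic-origin lines and 1 was not called, with a median difference of -3.39 (-3.66 within BKF and -3.12 within KMF), against -0.01 over all genes tested. These 8, Hoxb9 to Hoxb2, lie side by side on chromosome 11 (96271457 to 96354012, GRCm38). They formed the longest run of neighbouring genes called in the same direction with a difference of at least 2-fold. Of the other runs at this fold, 1 held 4 genes, 10 held 3 and 67 held 2, and neighbours called with smaller differences are not counted. The other Hox clusters did not show such a run. Of 9 tested HoxA genes 1 was lower, and of 9 HoxC genes 1 was higher, with no other call in either cluster.

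Hoxb8 (ENSMUSG00000056648, chromosome 11, 96281905 to 96285315) is a homeobox gene expressed in the posterior neural tube. It stood at 80 and 64 in embryonic BKF, 49 and 30 in embryonic KMF, 2735 and 3303 in tail-tip BKF and 1910 and 2130 in tail-tip KMF libraries. All tail-tip libraries were far above all embryonic ones, and the difference was -5.53 ± 0.18 (adjusted p = 4.49e-12). Hoxb5 (ENSMUSG00000038700, chromosome 11, 96303336 to 96306121) showed the same split at lower levels. Its values were 8, 10, 7 and 7 in embryonic-origin and 267, 288, 168 and 197 in tail-tip-origin libraries, in the order BKF then KMF, a difference of -4.66 ± 0.18 (adjusted p = 3.01e-11). Hoxb7 went from 10 to 18 in embryonic-origin libraries and from 99 to 244 in tail-tip ones (-3.39 ± 0.17, adjusted p = 1.35e-09).

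Hoxb6 and Hoxb9 were lower in the embryonic line of both cocktails. Hoxb6 (ENSMUSG00000000690, chromosome 11, 96292476 to 96301569) was at 6 and 4 in embryonic BKF against 1002 and 1383 in tail-tip BKF libraries. In KMF it was listed at 0 in both embryonic libraries and at 48 and 50 in the tail-tip ones. The mean difference was -6.64 ± 0.28 (adjusted p = 9.81e-11). Hoxb9 (ENSMUSG00000020875, chromosome 11, 96271457 to 96276595), the most posterior of the 8, stood at 0 and 2 in embryonic BKF and 410 and 372 in tail-tip BKF libraries. In KMF it was listed at 0 in both embryonic libraries against 30 and 32 (-6.41 ± 0.25, adjusted p = 4.35e-11). Because both embryonic KMF libraries are listed at 0, the size of the KMF difference depends on the added 1 and cannot be ranked against that of BKF.

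The anterior genes of the cluster differed less and about equally in both cocktails. Hoxb4 had 36 to 40 in embryonic-origin and 182 to 270 in tail-tip-origin libraries (-2.56 ± 0.16, adjusted p = 1.57e-08). For Hoxb3 the ranges were 178 to 244 and 894 to 1480 (-2.47 ± 0.16, adjusted p = 1.5e-08), and for Hoxb2 96 to 118 and 386 to 488 (-1.95 ± 0.19, adjusted p = 1.4e-06). None of the 3 ranges overlapped. Hoxb13, the ninth tested gene of the cluster and placed apart from the others, was at 10 or less in every library compared and was not called (adjusted p = 0.666).

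Outside the cluster Hoxa5 (ENSMUSG00000038253, chromosome 6, 52201754 to 52204587) was lower, with 399 to 500 in embryonic-origin and 850 to 2286 in tail-tip-origin libraries (-1.58 ± 0.29, adjusted p = 0.000547). Hoxc6 passed the test at values of 0 to 2 against 0 in all tail-tip libraries, and without either of 2 of the 8 libraries it did not (adjusted p up to 0.0856). Hoxd8 went in opposite directions. It was lower in embryonic BKF (116 and 86 against 243 and 266, difference -1.34 ± 0.29) and higher in embryonic KMF (66 and 46 against 1 and 2, difference 4.52 ± 0.29).

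The tail-tip fibroblasts and the remaining lines placed these Hox values in context. In the libraries of 1.0-year tail-tip fibroblasts Hoxb9 stood at 902 and 910, above every induced line, while Hoxb8 stood at only 36 and 42 and Hoxb5 at 30 and 35. Those fibroblasts thus had lower Hoxb8 and Hoxb5 values than the lines derived from such cells. Neural stem cells of 2.5-year mice listed all 8 genes at 0. Another embryonic line of Sox2-GFP mice, made with KF, had Hoxb8 at 1737 and 1580 and Hoxb5 at 148 and 122, within or near the tail-tip range, but Hoxb9 at 14 and 23 and Hoxb6 at 26 and 30. ICR embryonic lines, made with BKF and KF, had Hoxb8 at 0 or 1 and Hoxb9 at 0. Hoxb9 was the 1 member of the cluster whose embryonic-origin values lay below all adult-origin values over all 20 induced libraries, which include a tail-tip 4F line (133 and 178 at passage 8, 54 and 78 at passage 18) and an ear 4F line (24 and 30).

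**Figure D2:**
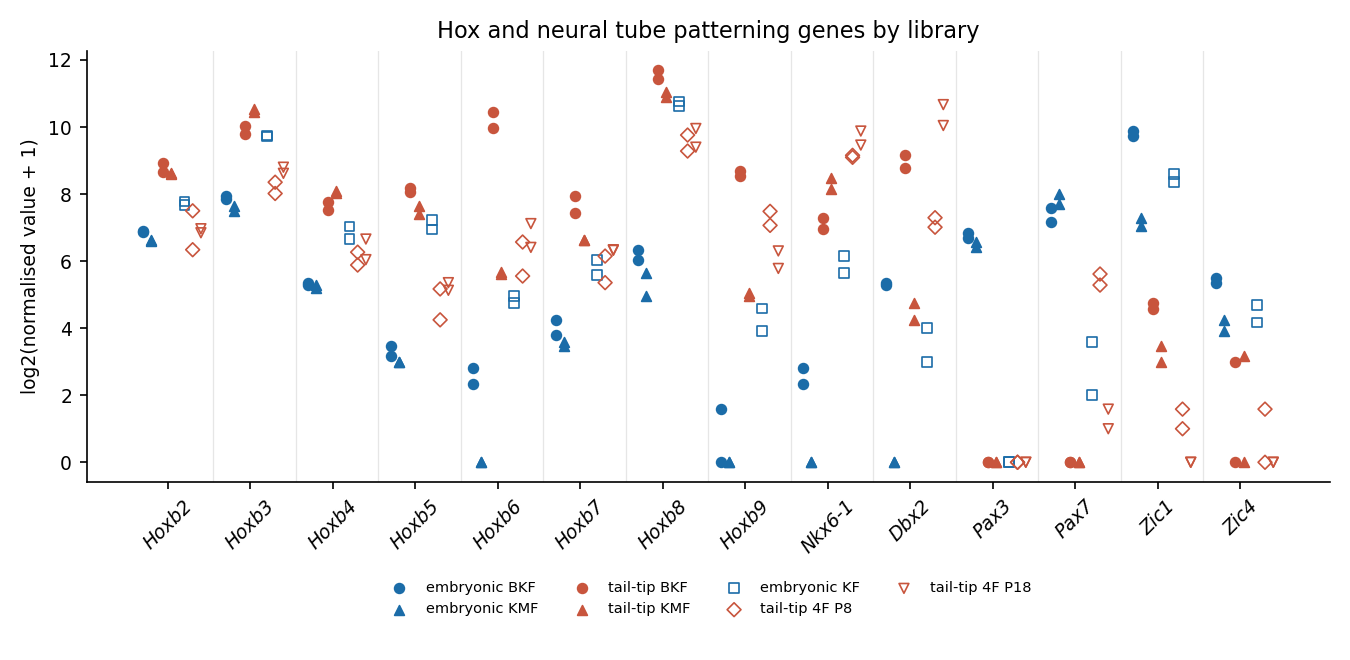
Log2(normalised value + 1) of 8 HoxB genes and 6 dorsoventral patterning genes in single libraries. Filled symbols are the 8 libraries compared (blue embryonic, red tail-tip, circles BKF, triangles KMF) and open symbols other Sox2-GFP lines; the filled red symbols lie above the filled blue ones for every HoxB gene, and Pax3 and Pax7 are at 0 in all filled red symbols.

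Genes that pattern the neural tube from dorsal to ventral split by origin as well. Of 11 tested members of this list, 4 were higher and 2 lower in the embryonic-origin lines. The median was -0.32, but it was 0.20 within BKF and 0.03 within KMF. The 4 higher ones, Pax3, Pax7, Zic1 and Zic4, are known for the dorsal neural tube, and the 2 lower ones, Nkx6-1 and Dbx2, for its ventral and intermediate parts. Pax7 (ENSMUSG00000028736, chromosome 4, 139737062 to 139833528), a paired-box gene also active in neural crest, stood at 142, 190, 256 and 207 in the embryonic-origin libraries and was listed at 0 in all 4 tail-tip ones (adjusted p = 1.12e-10). Its relative Pax3 (ENSMUSG00000004872, chromosome 1, 78101267 to 78197134) stood at 114, 103, 84 and 94 and was likewise listed at 0 in all 4 tail-tip libraries (adjusted p = 2.21e-07). These 2 genes were thus seen on one side only, with both cocktails at similar levels.

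Zic1 (ENSMUSG00000032368, chromosome 9, 91358058 to 91365810), a zinc finger gene, was at 938 and 852 in embryonic BKF and 156 and 131 in embryonic KMF libraries. In tail-tip libraries it was at 26 and 23 with BKF and 7 and 10 with KMF, a difference of 4.54 ± 0.33 (adjusted p = 5.1e-08). Its neighbour Zic4, with 40, 44, 18 and 14 against 7, 0, 0 and 8, was also higher (3.21 ± 0.63, adjusted p = 0.000907), but not in a fit of the 8 libraries alone (adjusted p = 0.0617). Nkx6-1 (ENSMUSG00000035187, chromosome 5, 101658139 to 101664996), a homeobox gene of ventral progenitors, went the other way. It was at 6 and 4 in embryonic BKF and listed at 0 in both embryonic KMF libraries, against 154, 124, 284 and 358 in tail-tip ones (-6.44 ± 0.24, adjusted p = 2.52e-11). Dbx2 was at 38 and 40 in embryonic BKF, 0 in both embryonic KMF, 434 and 572 in tail-tip BKF and 18 and 26 in tail-tip KMF libraries (-4.07 ± 0.5, adjusted p = 1.13e-05). For Dbx2 the groups overlapped over cocktails, but not within either.

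In the other lines these genes kept this pattern in part. Zic1 was high in the Sox2-GFP KF line (387 and 326) and the ICR BKF line (1134 and 1093) and at 2 or less in both passages of the tail-tip 4F line, but also high in the ear 4F line (908 and 852). Nkx6-1 was at 569 and 546 in the tail-tip 4F line at passage 8 and at 49 and 70 in the KF line. Pax3 was listed at 0 in the KF line, at both passages of the tail-tip 4F line and in the ear 4F line, and stood at 230 and 204 in ICR BKF. Pax7 was higher in the tail-tip 4F line at passage 8 (38 and 48) than in the KF line (11 and 3). Tail-tip fibroblasts themselves had Pax3 at 104 and 100 and Zic1 at 377 and 326, which the tail-tip lines did not.

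Among 8 tested forebrain and eye-field genes 2 were higher and 2 lower (25% each). Among 10 midbrain and hindbrain genes 2 were higher (20%) and 3 lower (30%), against 15.7% and 14.1% over all tested genes. Lhx2, a forebrain homeobox gene, was slightly higher (380 to 448 against 222 to 330, difference 0.63 ± 0.14, adjusted p = 0.002). Six3 was lower (10 to 25 against 30 to 42, -1.04 ± 0.2, adjusted p = 0.000881), as was Emx2 (-0.30 ± 0.08, adjusted p = 0.00718). Gbx2, which marks the anterior hindbrain, was higher (48 to 74 against 9 to 30, difference 1.62 ± 0.43, adjusted p = 0.00763). Among Iroquois homeobox genes Irx2 was higher (0.84 ± 0.1) and Irx1 (-0.55 ± 0.13) and Irx3 (-1.10 ± 0.2) were lower.

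The largest differences outside patterning genes concerned single genes of many functions. Tuba1c (ENSMUSG00000043091, chromosome 15, 99029891 to 99038110), an alpha tubulin with near-identical relatives, stood at 2140, 2264, 2018 and 1944 in embryonic-origin libraries. In tail-tip libraries it was at 71 and 99 with BKF and 5 and 1 with KMF (6.93 ± 0.55, adjusted p = 1.45e-07). It was also higher in all 6 libraries of the other embryonic lines (846 to 1874) than in the 6 of the other adult lines (47 to 435). Calca (ENSMUSG00000030669, chromosome 7, 114631478 to 114636357), which encodes calcitonin and the neuropeptide CGRP, was at 1168, 972, 1872 and 1882 against 22, 32, 6 and 4 (6.79 ± 0.43, adjusted p = 1.57e-08). Here the other lines did not follow origin, since the KF line stood at 3 and 1 and the tail-tip 4F line at 724 and 228 at passage 8.

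Akap12 (ENSMUSG00000038587, chromosome 10, 4266380 to 4359470), a scaffold for protein kinase A, was at 2548, 3223, 3858 and 3822 against 148, 108, 74 and 78 (5.07 ± 0.41, adjusted p = 1.91e-07). Fndc1, a fibronectin-domain gene, was at 802, 936, 180 and 148 against 71, 30, 0 and 1 (5.53 ± 0.29, adjusted p = 1.53e-09). Rassf5, a Ras-association gene, was at 548, 661, 56 and 40 against 6, 2, 3 and 4 (5.24 ± 0.4, adjusted p = 8.28e-08). In the last 2 the embryonic BKF line held the highest values and the embryonic KMF line still exceeded every tail-tip library. Galnt13 (ENSMUSG00000060988, chromosome 2, 54436317 to 55118309), an enzyme of mucin-type O-glycosylation, stood at 216, 221, 168 and 172 and was listed at 0 in all 4 tail-tip libraries (adjusted p = 2.2e-16). Tail-tip fibroblasts had it at 1046 and 1018, the tail-tip 4F line at 84 and 122 at passage 8 and 0 at passage 18, and the KF line at 0. Aard (5.23 ± 0.53), the synaptotagmin Syt13 (4.92 ± 0.54) and the ubiquitin-conjugating enzyme gene Ube2ql1 (4.26 ± 0.4) were also among the largest differences, with 83 to 353, 201 to 334 and 190 to 554 in embryonic-origin libraries and at most 36 in tail-tip ones.

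Several further genes of this rank rested mainly on 1 tail-tip line that was listed at 0. The growth factor gene Pdgfd was at 676 to 800 in embryonic-origin and 462 and 588 in tail-tip BKF libraries but 0 in tail-tip KMF. The zinc finger gene Zfp760 (956 to 1157, then 837 and 876, then 0) and Rbm43 (110 to 153, then 34 and 40, then 0) had the same form. Pagr1a was listed at 0 in tail-tip BKF and at 36 and 32 in tail-tip KMF libraries, against 146 to 306, and Zfp985 at 0 in tail-tip BKF and 103 and 92 in tail-tip KMF, against 152 to 210. Zfp990 (ENSMUSG00000078503, chromosome 4, 145510759 to 145539188) was at 380 to 546 against 1 or 0 in all tail-tip libraries (8.39 ± 1.08, adjusted p = 2e-05). Zfp760, Zfp985, Zfp990 and Pagr1a belong to families or pairs of near-identical copies among which reads can be split, so their values are uncertain.

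On the lower side, Rtl8b (ENSMUSG00000067924, X chromosome, 53669177 to 53670408), a retrotransposon-derived Gag-like gene with close relatives, was at 12, 2, 5 and 9 against 554, 738, 843 and 1033 (-6.80 ± 0.3, adjusted p = 2.45e-10). Kcnj10 (ENSMUSG00000044708, chromosome 1, 172341210 to 172374085), the potassium channel of astrocytes and other glia, was at 56, 54, 58 and 50 against 3111, 2433, 4127 and 4170 (-5.93 ± 0.46, adjusted p = 1.19e-07). Neural stem cells of old mice had it at 9430 and 21805 and tail-tip fibroblasts at 9 and 0, and it was at 1286 and 1966 in the tail-tip 4F line at passage 8, 464 and 428 in the KF line and 64 and 72 in the ear 4F line. The tail-tip lines were thus nearer to neural stem cells in this gene than the embryonic lines. The retinaldehyde reductase gene Dhrs3, of vitamin A metabolism, was lower (20, 23, 6 and 8 against 142, 220, 353 and 330, difference -4.21 ± 0.23), and the tail-tip KMF libraries were the highest. The G-protein subunit gene Gng2 (4 to 10 against 99 to 282, difference -4.59 ± 0.3) and Tmem132b (10 to 23 against 241 to 504, difference -4.20 ± 0.69) were lower too.

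Olfr1489 and Olfr1437 were listed at 0 in all embryonic-origin libraries and stood at 358 to 498 and 346 to 364 in tail-tip ones (adjusted p = 0.0205 and 0.0212). Each lost the call when 1 of several libraries was left out (4 of 8 for Olfr1489, adjusted p up to 0.0516, and 6 of 8 for Olfr1437, up to 0.0531), and olfactory receptors have close copies. Efhc2, Mbd3l2 and Stk26 passed with 1, 1 and 2 embryonic libraries at the tail-tip level and the others at 0. Their calls were lost without 7, 7 and 8 of the 8 libraries in turn (adjusted p up to 0.197, 0.17 and 0.0703), so these 3 calls rest on few libraries.

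Of 25 tested neural stem and progenitor genes, 11 were lower (44%) and 3 higher (12%) in the embryonic-origin lines, against 14.1% and 15.7% over all tested genes, with a median of -0.31. The share of higher genes was thus near that background. Since RNA was taken from whole cultures, fewer cells of a type and less RNA per cell cannot be told apart. Sox2 (ENSMUSG00000074637, chromosome 3, 34650405 to 34652461) stood at 1213, 1142, 984 and 969 in embryonic-origin and 2265, 2745, 2854 and 2504 in tail-tip-origin libraries (-1.27 ± 0.08, adjusted p = 9.98e-09). Sox9, which maintains neural stem cells and glia, was at 654 to 1079 against 1526 to 2068 (-1.08 ± 0.08, adjusted p = 7.84e-08). Neither gene overlapped between origins. Pax6 (-0.57 ± 0.08) and the RNA-binding protein gene Msi1 (-0.58 ± 0.06) were lower by less. Sox1 was at 3 to 6 against 108, 77, 13 and 14, lower in both cocktails and most in BKF (-2.64 ± 0.3, adjusted p = 4.7e-06).

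The intermediate filament gene Nes (ENSMUSG00000004891, chromosome 3, 87971078 to 87980451), by contrast, was higher. It stood at 16127, 16127, 20143 and 21808 in embryonic-origin and 6861, 7289, 6468 and 5952 in tail-tip-origin libraries (1.47 ± 0.14, adjusted p = 1.32e-06). Values this high are shared by several genes within a library, which compresses their differences. Fabp7, a lipid-binding protein of radial glia, ranged from 32713 to 92914 on both sides and was not called (adjusted p = 0.513).

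Of 12 neuronal genes 3 were lower (25%) and the other 9 not called, of 15 astrocyte genes 2 were higher (13.3%) and 6 lower (40%), and of 11 oligodendrocyte lineage genes 1 was higher (9.09%) and 4 lower (36.4%). Over all tested genes 15.7% were higher and 14.1% lower. Summed markers overlapped between origins for neurons (20577 to 24996 in embryonic-origin and 16140 to 25471 in tail-tip-origin libraries) and astrocytes (7443 to 12998 and 9617 to 10484). For the oligodendrocyte lineage they were 52354 to 60648 and 60693 to 64533, without overlap. The neuronal tubulin gene Tubb3 (ENSMUSG00000062380, chromosome 8, 123411424 to 123422015) was at 117, 110, 59 and 88 against 580, 678, 416 and 481 (-2.54 ± 0.18, adjusted p = 4.39e-08). Elavl3, a neuronal RNA-binding protein gene, was at 1 to 5 against 8 to 21 (-2.26 ± 0.32), and the adhesion gene Ncam1 was lower by -0.61 ± 0.08. The lipoprotein gene Apoe (ENSMUSG00000002985, chromosome 7, 19696109 to 19699188) was at 830, 823, 850 and 1080 against 3428, 4472, 4635 and 3952 (-2.20 ± 0.26, adjusted p = 7.31e-06). With it, Aldh1l1 (-1.42 ± 0.17) and the receptor gene Fgfr3 (-1.40 ± 0.22) were lower. Not all astrocyte genes followed, as Gfap, the astrocyte filament gene, was higher over both cocktails (1.35 ± 0.31, adjusted p = 0.00303) with overlap over cocktails (166 to 248 against 32 to 180), and the gap junction gene Gja1 was slightly higher (0.49 ± 0.11). In the oligodendrocyte lineage Cnp was at 986 to 1274 against 2624 to 4304 (-1.63 ± 0.13, adjusted p = 1.11e-07), the receptor gene Gpr17 at 0 to 13 against 54 to 73 (-3.79 ± 0.5) and Pdgfra at 46 to 72 against 99 to 258 (-1.42 ± 0.17). The 1 higher gene of this list was Cspg4 (2.78 ± 0.30, adjusted p = 3.2e-06), with overlap between origins.

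In the Notch pathway, through which neighbouring cells hold each other in the progenitor state, 3 of 20 tested genes were higher (15%) and 6 lower (30%), against 15.7% and 14.1% over all tested genes, with a median of -0.22. Within BKF the median was 0.16 and 3 members passed the threshold. Within KMF it was -0.60 and 14 passed, so the downward shift of the list was seen in KMF only. Past the threshold in both cocktails with the same sign were 2 lower members. The ligand gene Dll1 was at 1984, 2048, 1132 and 1140 against 2504, 2601, 4127 and 4038 (-1.09 ± 0.16, adjusted p = 9.12e-05). The divergent ligand gene Dll3 was at 100 to 189 against 458 to 852 (-2.16 ± 0.2, adjusted p = 6.21e-07). Another ligand gene, Jag1, was higher (582, 700, 1239 and 1079 against 436 to 564, difference 0.80 ± 0.17, adjusted p = 0.00201), as was the glycosyltransferase gene Rfng (0.42 ± 0.09), which modifies Notch receptors. The Hes-family gene Hes6 (-1.12 ± 0.14, adjusted p = 2.03e-05) and Nrarp, a feedback inhibitor (-2.59 ± 0.49, adjusted p = 0.000658), were lower. Hes5 was at 150 to 227 against 356, 496, 1379 and 1438 and did not pass (adjusted p = 0.141), though it did in a fit of the 8 libraries alone (adjusted p = 0.000436).

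The hedgehog pathway, whose signal patterns the ventral neural tube and drives progenitor division, had 7 of 12 tested genes higher (58.3%, against 15.7% over all tested genes) and 1 lower, with a median of 0.77. Cdon (0.77 ± 0.13, adjusted p = 0.000319), a co-receptor, and Disp1 (0.87 ± 0.21, adjusted p = 0.00443), which releases the ligand from producing cells, were higher. Evc (ENSMUSG00000029122, chromosome 5, 37289098 to 37336894) and its neighbour Evc2, which act together at the primary cilium, were higher in both cocktails. Evc stood at 76, 96, 18 and 17 against 12, 8, 0 and 0 (3.6 ± 0.12, adjusted p = 4.49e-12), and Evc2 at 44, 40, 26 and 28 against 13, 22, 1 and 0 (2.78 ± 0.2, adjusted p = 4.04e-08). The transcription factor genes Gli2 (109 to 202 against 32 to 80, difference 1.49 ± 0.33, adjusted p = 0.00227) and Gli3 (0.86 ± 0.15, adjusted p = 0.00025) were higher. Ptch1, receptor, brake and target of the pathway, was lower over both cocktails (-0.49 ± 0.15, adjusted p = 0.0199), with overlap, and its call was lost without any of 4 of the 8 libraries (adjusted p up to 0.0794). With replicate number as a block 4 of the 12 were called higher instead of 7, and Gli3 and Disp1 were among those no longer called.

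The glycolysis and hypoxia list had the highest share of lower genes of all lists with at least 7 members tested. Of 25 tested, 18 were lower (72%) and 1 higher (4%) in the embryonic-origin lines, against 14.1% and 15.7% over all tested genes. The median was -0.85, -0.64 within BKF and -1.21 within KMF. Within KMF 16 of the 25 passed the threshold and within BKF 7 did, and 3 were lower past the threshold in both. These genes encode glucose transporters, the enzymes of glycolysis and targets of hypoxia-inducible factor (HIF), which binds a core of the letters ACGTG. Promoter windows of 3 lower members are shown because their genes moved together and hold this core. Each runs 5′ to 3′ on the gene's strand, from 250 bases before to 50 after the RefSeq start (GRCm38.p6), with ACGTG and its reverse complement CACGT in capitals, overlapping matches merged. They lie at chr7:46845554-46845853 (plus strand, Ldha), chr7:138909457-138909756 (minus strand, Bnip3) and chr12:54203825-54204124 (minus strand, Egln3).
Ldha: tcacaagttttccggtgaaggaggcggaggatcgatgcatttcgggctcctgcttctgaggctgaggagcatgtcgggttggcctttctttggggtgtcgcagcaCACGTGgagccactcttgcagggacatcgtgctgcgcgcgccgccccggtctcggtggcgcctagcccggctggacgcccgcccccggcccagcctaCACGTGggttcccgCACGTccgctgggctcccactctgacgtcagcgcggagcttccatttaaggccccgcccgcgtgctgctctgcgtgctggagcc
Bnip3: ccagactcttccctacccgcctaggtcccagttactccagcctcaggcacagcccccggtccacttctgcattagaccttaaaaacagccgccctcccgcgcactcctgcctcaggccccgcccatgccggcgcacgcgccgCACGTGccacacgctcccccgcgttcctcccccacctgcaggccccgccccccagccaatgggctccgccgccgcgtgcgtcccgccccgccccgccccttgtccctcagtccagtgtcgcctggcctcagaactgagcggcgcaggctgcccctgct
Egln3: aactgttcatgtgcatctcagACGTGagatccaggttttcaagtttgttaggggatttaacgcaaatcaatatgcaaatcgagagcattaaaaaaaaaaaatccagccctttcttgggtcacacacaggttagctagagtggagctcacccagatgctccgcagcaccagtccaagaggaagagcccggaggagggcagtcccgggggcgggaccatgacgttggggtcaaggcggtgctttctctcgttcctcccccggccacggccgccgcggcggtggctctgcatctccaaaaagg
The window shown for Ldha held 3 separate sites, and those of Bnip3 and Egln3 held 1 each. A second RefSeq start of Ldha has its window at chr7:46846832-46847131, with 0 matches. Of 17 lower members with a window, 13 (76.5%) held ACGTG or CACGT in at least 1 window, against 3235 of 11898 tested genes with a window (27.2%) and 6447 of all 32851 windows (19.6%). The list was put together in part from HIF targets, so a share above that of all genes may come with the choice of list. The share among its members not called lower is not given, so the comparison says nothing of the calls. A match of 5 letters is a description of the window and says nothing of binding in these cells.

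Among HIF targets, Bnip3 (ENSMUSG00000078566, chromosome 7, 138890836 to 138909519), a mitophagy receptor, stood at 2799 and 2548 in embryonic BKF, 422 and 307 in embryonic KMF, 4840 and 4930 in tail-tip BKF and 4005 and 4242 in tail-tip KMF libraries. The 2 tail-tip lines were alike, and the embryonic KMF line stood lowest (-2.19 ± 0.41, adjusted p = 0.000553). Egln3 (ENSMUSG00000035105, chromosome 12, 54178981 to 54203860), an oxygen-sensing hydroxylase, repeated the order with 1153, 1120, 323 and 262 against 1910, 2048, 1476 and 1408 (-1.55 ± 0.14, adjusted p = 7.3e-07). Vegfa, the angiogenic growth factor gene, was at 5430, 5602, 941 and 1055 against 15156, 10338, 8417 and 8657 (-2.14 ± 0.47, adjusted p = 0.00223), and Pdk1, which limits the entry of pyruvate carbon into the mitochondrial cycle, differed by -1.91 ± 0.37. Adm, a HIF target that encodes adrenomedullin, was the 1 higher gene of the list (76, 68, 12 and 16 against 40, 43, 1 and 3, difference 1.59 ± 0.34).

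Glucose uptake genes were lower in both cocktails for Slc2a3 (649, 683, 234 and 236 against 1910, 1786, 1350 and 1350, difference -1.99 ± 0.33, adjusted p = 0.000203) and, mainly in KMF, for Slc2a1 (-1.02 ± 0.18, adjusted p = 0.000342). Of glycolytic enzymes, Tpi1 (-1.10 ± 0.24) and the hexokinase gene Hk1 (-0.68 ± 0.12) were lower. Ldha (ENSMUSG00000063229, chromosome 7, 46841475 to 46855627), which makes lactate, was at 21808, 20143, 9950 and 10340 against 32716, 32716, 28063 and 28063 (-1.06 ± 0.26, adjusted p = 0.00433). The lactate exporter gene Slc16a3 was lower within BKF (7 and 4 against 326 and 328) and not in KMF (0 and 1 against 1 and 1), and without embryonic KMF replicate 1 its sign within KMF was no longer the same, which ended the call. The ear 4F line stood near the tail-tip lines, with Bnip3 at 5242 and 5090, while the tail-tip 4F line had Bnip3 at 154 and 1122 at passage 8 and 1016 and 418 at passage 18. The median of the list was -0.05 for passage 8 minus passage 18 of that line, against -0.03 over all genes. For the KF line minus the tail-tip 4F line at passage 8 it was 1.05, of the other sign.

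**Figure D3:**
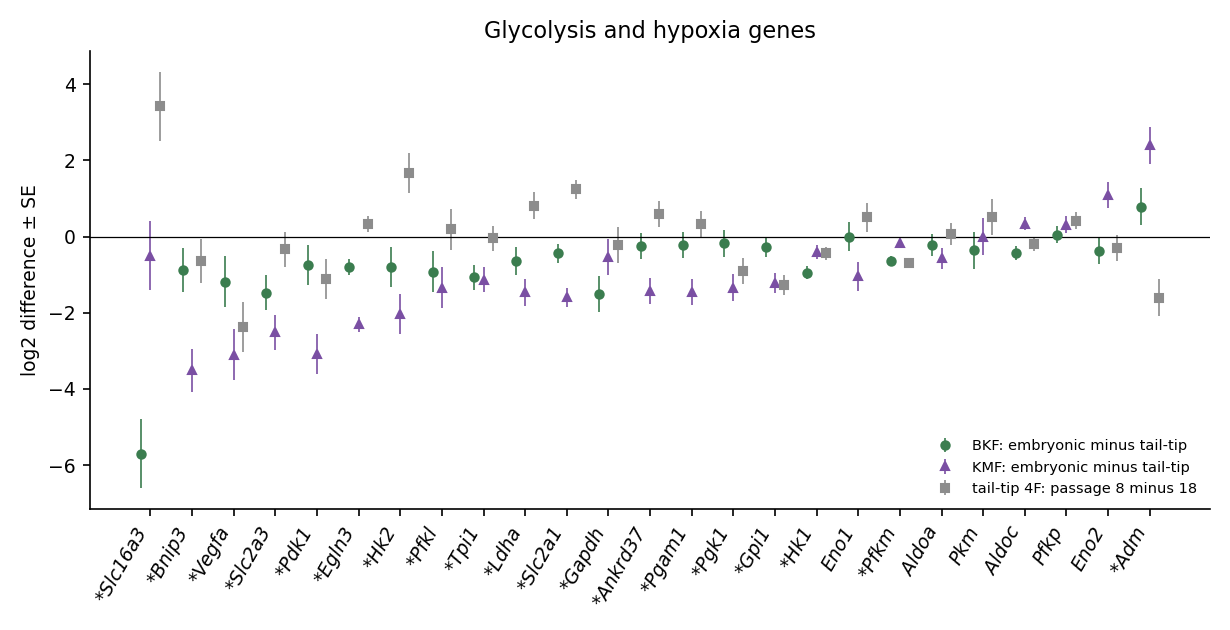
Log2 difference ± SE of 25 glycolysis and hypoxia genes between embryonic and tail-tip origin within BKF (green circles) and within KMF (purple triangles), and between passage 8 and passage 18 in the tail-tip 4F line (grey squares). Asterisks mark the 19 genes called for origin; the KMF differences lie at or below those of BKF for most called genes, and the passage differences scatter around 0.

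Genes of the cell cycle that were called acted mostly in G1. Of 14 tested cyclins and kinases of G1, 5 were higher (35.7%) and 3 lower (21.4%), against 15.7% and 14.1% over all tested genes. Of 24 DNA replication genes 2 were higher and the other 22 not called, with a median of 0.36 (0.25 within BKF and 0.47 within KMF). Of 23 mitotic genes limma called 0, and 1 was lower at an unadjusted p under 0.05. Their median was -0.43 (-0.29 within BKF and -0.54 within KMF). Several, such as Ccnb2 (-1.08 ± 0.48) and Kif11 (-0.85 ± 0.48), did not overlap between origins. Only Cdk1 (0.19 ± 0.63) and Mad2l1 (0.02 ± 0.33) lay above 0. The spread came from all 28 libraries, and a gene that was not called may still differ. Ccnd1 (ENSMUSG00000070348, chromosome 7, 144929931 to 144939925), cyclin D1, stood at 10890, 13042, 16122 and 16122 against 6318, 5846, 2683 and 2568 (1.79 ± 0.35, adjusted p = 0.000854). Ccnd2, cyclin D2, was at 5846, 6318, 5088 and 5242 against 3924, 3000, 1065 and 1048 (1.56 ± 0.17, adjusted p = 3.4e-06). In both the tail-tip KMF line stood lowest. Cyclin E gene Ccne1 (1.30 ± 0.21) and E2f3 (0.61 ± 0.07) were higher, and the tumour suppressor gene Rb1, which restrains E2F factors, was lower (-0.57 ± 0.11). The kinase gene Cdk6 had the largest difference of the G1 list and was lower too (-2.14 ± 0.33, adjusted p = 0.000107), without overlap between origins. Cdkn1b, the inhibitor p27, was lower with 1336 to 1504 against 2488 to 2834 (-0.96 ± 0.07, adjusted p = 7.48e-08).

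Of 19 tested p53 targets 7 were higher (36.8%) and 2 lower (10.5%), against 15.7% and 14.1% over all tested genes. The median was 0.42, but it was -0.02 within BKF and 0.71 within KMF, so the shift of the list was seen in KMF only. Within BKF 6 members passed the threshold and within KMF 15 did. Past it in both cocktails were 3 higher and 2 lower members. Trp53 itself (0.62 ± 0.08), its ubiquitin ligase gene Mdm2 (0.54 ± 0.11) and Zmat3 (0.54 ± 0.05) were higher by less than 2-fold. The antiproliferative gene Btg2 (-1.24 ± 0.09, adjusted p = 4.92e-08) and the stress gene Sesn1 (-0.80 ± 0.07, adjusted p = 6.75e-07) were lower. Genes of growth factor signalling differed by more. Igfbp3 was at 7153, 6859, 21805 and 20138 against 3527, 3578, 2326 and 2445 (2.06 ± 0.2, adjusted p = 1.33e-06), and Igfbp5, which like it binds insulin-like growth factors, at 4710, 5430, 5242 and 5242 against 24587, 12122, 28060 and 24587 (-2.05 ± 0.21, adjusted p = 1.94e-06). These 2 binding proteins thus differed in opposite directions. Tgfbr2 (ENSMUSG00000032440, chromosome 9, 116084293 to 116175360), a receptor of TGF-beta, was at 676, 708, 1750 and 1800 against 242, 179, 254 and 262 (2.25 ± 0.1, adjusted p = 3.38e-10).

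Of 15 tested antigen presentation genes 1 was higher (6.67%) and 4 lower (26.7%). Of 20 interferon response genes 1 was higher (5%) and 5 lower (25%). Over all tested genes 15.7% were higher and 14.1% lower. The median of the antigen presentation list was -0.79 within BKF and 0.06 within KMF. H2-K1 (ENSMUSG00000061232, chromosome 17, 33996017 to 34000347), a classical class I molecule, was at 106, 70, 32 and 26 against 624, 702, 318 and 326 (-3.18 ± 0.22, adjusted p = 2.73e-08). H2-D1 (22 to 34 against 52 to 76, difference -1.06 ± 0.28, adjusted p = 0.00777) and the non-classical H2-T23 (-2.80 ± 0.34, adjusted p = 1.16e-05) were lower too. H2-M3 was the 1 higher antigen presentation gene (2.55 ± 0.74, adjusted p = 0.0139), with overlap between origins. Class I genes are alike in sequence and vary between mice, so reads may be split among them and their values are uncertain.

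Imprinted genes did not move together, with 5 of 33 tested higher (15.2%) and 7 lower (21.2%) and a median of 0.00. Over all tested genes 15.7% were higher and 14.1% lower. Ndn, a growth suppressor expressed from the paternal copy, was at 529, 456, 564 and 588 against 100, 152, 252 and 242 (1.60 ± 0.15, adjusted p = 9.48e-07). Peg10 (1.08 ± 0.11), Mest (0.98 ± 0.24) and Peg12 (0.69 ± 0.09) were higher. The 7 lower imprinted genes included Rasgrf1 (-3.41 ± 0.98), Grb10 (-0.70 ± 0.16), Snrpn (-0.45 ± 0.11) and Sgce (-0.35 ± 0.09). Of 10 genes of the fetal growth programme 1 was higher and 1 lower. Hmga2, a chromatin protein gene of fetal stem cells, was higher (0.53 ± 0.14, adjusted p = 0.0099) and Trim71, a target of the let-7 microRNA, lower (-1.30 ± 0.26, adjusted p = 0.000975). Of 19 genes of DNA methylation and polycomb 5 were lower (26.3%) and 14 not called.

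All 8 libraries carried Y-linked transcripts. Eif2s3y (ENSMUSG00000069049, Y chromosome, 1010543 to 1028847), a translation factor subunit, was at 501, 510, 556 and 494 against 2265, 2900, 2626 and 2764 (-2.35 ± 0.07, adjusted p = 2.32e-12). The other induced lines, the KF line included, had it at 1928 to 3668, so the embryonic BKF and KMF lines stood apart from all of them. Ddx3y was at 826, 808, 2190 and 2203 against 2150 to 2922 (-0.92 ± 0.04), with overlap, and Kdm5d was higher in embryonic BKF and lower in embryonic KMF. Uty was at 1392 to 1554 against 1665 to 1934 and was not called (adjusted p = 0.952), although it passed in a fit of the 8 libraries alone (adjusted p = 0.00261).

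Of 10 tested genes of reprogramming factors 3 were higher (30%) and 4 lower (40%), against 15.7% and 14.1% over all tested genes. Sox17 (ENSMUSG00000025902, chromosome 1, 4490931 to 4497354) was at 12, 6, 4 and 8 in embryonic-origin and 384, 254, 62 and 29 in tail-tip-origin libraries (-3.87 ± 0.29, adjusted p = 8.92e-08). Transcripts of the engineered factor and of the chromosomal gene cannot be told apart in this table. The KF line had Sox17 at 115 and 166, the ear 4F line at 222 and 262 and the tail-tip 4F line at 0 at both passages. Myc, a growth regulator, was at 2704, 2682, 3666 and 3427 against 1400, 1282, 466 and 531 (1.92 ± 0.21, adjusted p = 3.87e-06), and its relative Mycl was lower (-1.50 ± 0.27). The neural POU factor gene Pou3f2 was lower (481 to 562 against 821 to 1039, difference -0.90 ± 0.12, adjusted p = 3.11e-05). Klf4 passed narrowly (0.79 ± 0.29, adjusted p = 0.0456) and did not pass without any of 7 of the 8 libraries (adjusted p up to 0.142).

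**Figure D4:**
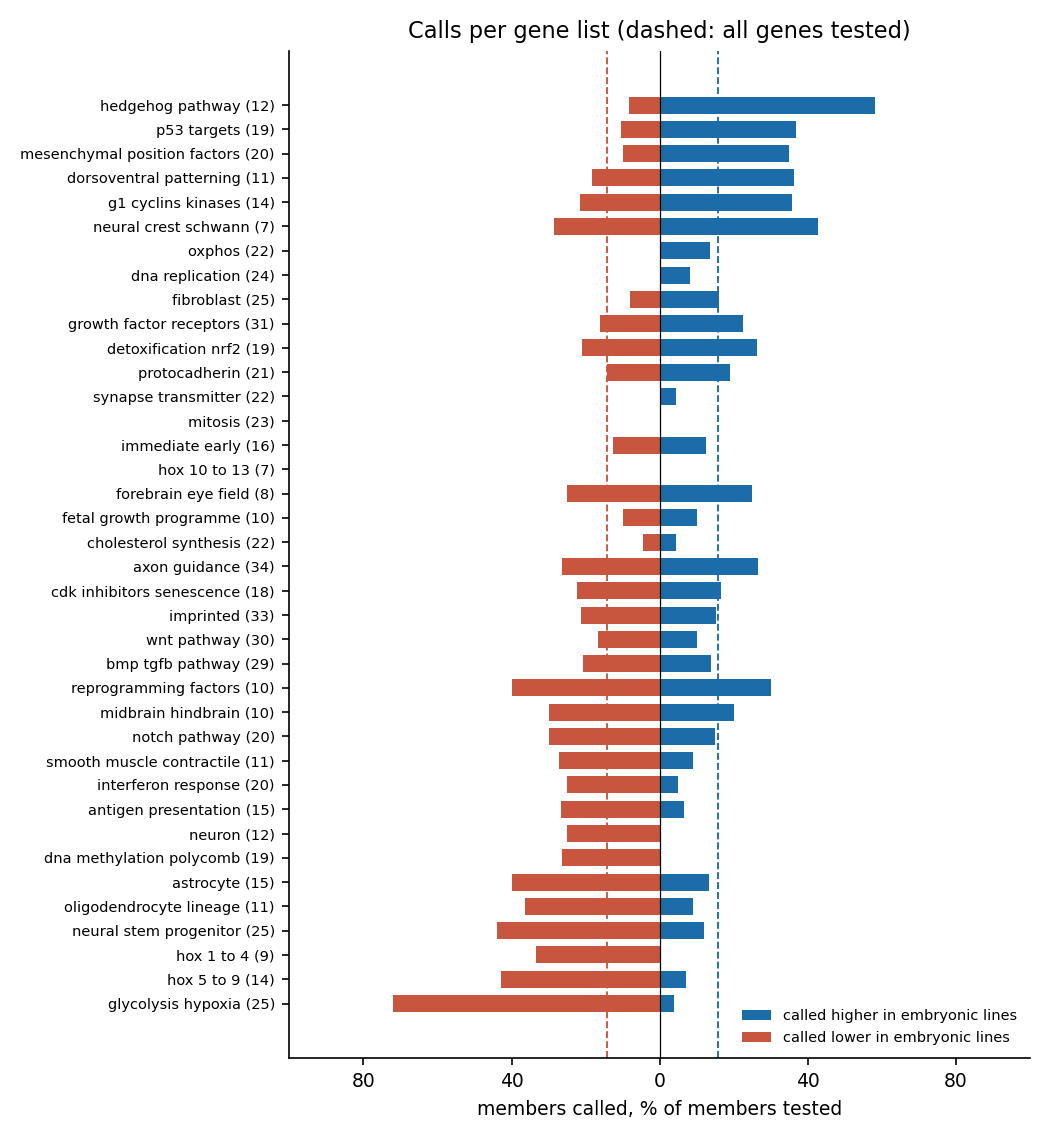
Share of the tested members of each gene list called higher (blue, to the right) and lower (red, to the left) in embryonic-origin lines, in percent, for lists with at least 7 tested members (number in parentheses). Dashed lines mark the shares over all tested genes, 15.7% higher and 14.1% lower; hedgehog genes lie farthest to the right and glycolysis and hypoxia genes farthest to the left.

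In further lists calls went in both directions. Of 30 Wnt pathway genes 3 were higher and 5 lower, of 29 BMP and TGF-beta pathway genes 4 and 6, of 34 axon guidance genes 9 and 9, of 22 cholesterol synthesis genes 1 and 1, and of 25 fibroblast genes 4 and 2. Chromosomes did not stand out, as the median difference per chromosome over 12576 genes with a mean of at least 50 lay between -0.04 and 0.03.

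A set of 173 genes (1.06%) passed the threshold in each cocktail with opposite signs and so could not be called for origin. Nnat, an imprinted gene of neuronal differentiation, was at 2018 and 1928 in embryonic BKF against 38 and 34 in tail-tip BKF libraries, but at 582 and 556 in embryonic KMF against 1239 and 1270 in tail-tip KMF. Matn4, a matrix protein gene, was at 74 and 97 against 2 and 1 with BKF and at 5 and 8 against 265 and 307 with KMF. Dpysl3, which acts in axon growth, went the other way with 128 and 132 against 960 and 855 in BKF and 2336 and 2236 against 552 and 584 in KMF. Mid1ip1 (930 and 798 against 2033 and 2488, then 1176 and 1172 against 54 and 40) and the amino acid transporter gene Slc38a3 (1438 and 1476 against 2816 and 2504, then 4170 and 4471 against 1484 and 1636) had the same form. Such genes differ between single lines rather than by origin alone.

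Whether the differences recur in lines not used above was described with the KF line of embryonic origin, the tail-tip 4F line at passage 8 and passage 18, the ICR embryonic lines and the ear 4F line. Their cocktails differ between the origins, which cannot be told apart from origin, and the passage comparison shares its passage 8 or 18 libraries with each of the other contrasts. For the KF line minus the tail-tip 4F line at passage 8, 6909 of 16275 genes passed the threshold (42.5%). Of the 4849 genes called for origin, 1148 (23.7%) had the same sign there and 3680 the opposite sign, against 35% with the same sign over all tested genes. Against passage 18, where 4017 genes passed (24.7%), 2604 (53.7%) had the same sign, against 54.6% over all tested genes. The genes called for origin were thus not reproduced in sign by this second pair of lines, and the answer depended on the passage of the tail-tip 4F line.

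Passage 8 minus passage 18 of the tail-tip 4F line, where 5716 genes passed (35.1%), had the sign of the origin difference for 4102 of the 4849 called genes (84.6%), against 69.7% over all tested genes. Past the threshold for passage were 2930 of the called genes, 2768 with the same sign and 162 with the opposite sign. Genes higher in embryonic-origin lines were thus more often higher at the earlier passage of a line of tail-tip origin. Nes, for example, was at 32716 in both passage 8 libraries and 8658 and 8418 at passage 18, and Sox2 at 1091 and 1157 against 2624 and 2236. Ccnd1 (2.16 ± 0.5) and Ccne1 (2.41 ± 0.3) were higher at passage 8, and Apoe (-2.83 ± 0.36) and Cdkn1b (-0.89 ± 0.1) were lower. Passages of the 8 libraries compared for origin were not used here, so passage and origin cannot be told apart for these genes.

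Of the called Hox genes, 2 of 3 in paralogue groups 1 to 4 and 5 of 7 in groups 5 to 9 had the sign of the passage difference. In the HoxB cluster Hoxb9 passed the threshold between passages, with the opposite sign (1.23 ± 0.36, adjusted p = 0.0129). The other 7, Hoxb8 (-0.16 ± 0.25), Hoxb7 (-0.58 ± 0.25), Hoxb6 (-0.70 ± 0.39), Hoxb5 (-0.53 ± 0.25), Hoxb4 (-0.28 ± 0.23), Hoxb3 (-0.52 ± 0.22) and Hoxb2 (0.01 ± 0.27), did not pass it, nor did Kcnj10 (-0.27 ± 0.66), Tuba1c (0.77 ± 0.78) or Nkx6-1 (-0.55 ± 0.34). In all, 1919 called genes did not pass the threshold for passage, 999 higher and 920 lower. A gene that misses this threshold may still differ between passages.

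**Figure D5:**
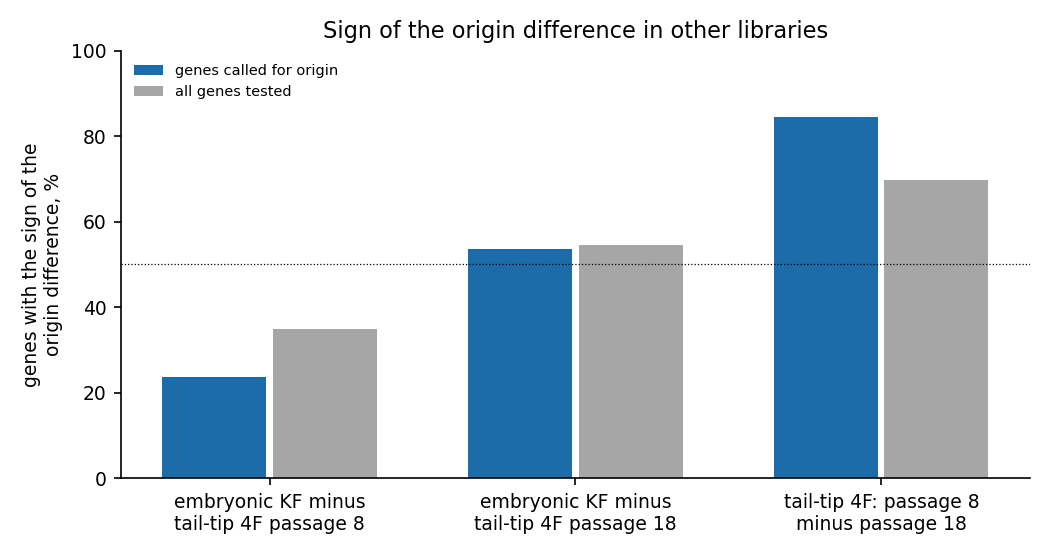
Percent of genes whose difference had the sign of the origin difference in 3 contrasts that share no library with it, for the 4849 called genes (blue) and all 16275 tested genes (grey). The dotted line marks 50%; the called genes lie at 23.7%, 53.7% and 84.6%.

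Over the 12 other induced libraries, 6 of embryonic and 6 of adult origin, few called genes separated the origins again. Of the 2548 genes called higher, 67 (2.63%) had all 6 embryonic values above all 6 adult ones and 20 (0.785%) all below. Of the 2301 called lower, 54 (2.35%) had all 6 below and 19 (0.826%) all above. Over all tested genes the shares were 1.65% above and 1.41% below. Over all 20 induced libraries 33 called genes separated embryonic from adult origin without overlap, 16 higher and 17 lower. Besides Tuba1c, Mdm2 and Gja1 above and Hoxb9 below, they held Gata4 (ENSMUSG00000021944, chromosome 14, 63198922 to 63271692), a zinc finger factor of heart and endoderm named here after its values were seen. Gata4 stood at 16, 18, 122 and 115 in the embryonic lines compared and 6 to 166 in the other embryonic lines, against 0 to 4 in the tail-tip lines compared and 0 or 1 in the other adult lines (4.45 ± 0.21, adjusted p = 3.98e-10).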

How the data were processed

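Messenger RNA of 28 mouse libraries in 14 groups of 2 was sequenced after oligo(dT) enrichment, per the labels' protocols. The authors deposited a single table of whole-number scores for 17295 genes, called normalised expression values there. The names RSEM, Bowtie2 2.0 and mm10 appear without roles, per the submitters' processing notes, and the normalisation is not given in the sources used here. In each of the 8 libraries 10 genes share the highest value, 92914, and the next is 42162. Such ties compress differences of abundant genes. Every gene reaches 21 in at least 2 libraries, so a filter preceded deposition. All identifiers were found in GENCODE M21 (GRCm38, mm10), the source of coordinates, and 18 genes share a symbol.

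Values were changed to log2(value + 1). Genes whose mean over 28 libraries reached 10 were fitted with limma 3.58.1 (R 4.3.3), 1 term per group and a variance trend, and origin, its effect per cocktail and their difference were contrasts. Adjustment was by Benjamini-Hochberg over all tested genes, at 0.05. Equal replicate numbers did not pair libraries. Members and the 45 gene lists were chosen with earlier results of these data known. Genes were named by rule: the 15 largest called differences per direction without overlap and with a mean of at least 100 on a side, genes listed at 0 on a side, the 6 members of each described list with the smallest adjusted p, the 6 strongest opposite differences, and all Hox, factor and Y-linked genes. From these a readable subset is described, and some items are not reported here. Hoxb13 and Gata4 were named after their values were seen. Promoters are RefSeq windows of 300 bases on GRCm38.p6. The pipeline was tested on simulated data. Figures used Python 3.11.15 with pandas 2.3.3 and matplotlib 3.10.9. Tests for counts were not run, because the values are not counts.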

Additional observations from a re-analysis of the deposited data

Results flagged for a closer look

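The test of the difference between the origin effects of both cocktails passed for 2132 genes, and for 44 of the 132 genes examined by name. Values in parentheses are the effect within BKF minus the effect within KMF, on the log2(value + 1) scale, each with an adjusted p under 0.05 (limma). For 7 of them the effects passed the threshold within each cocktail with opposite signs: Dpysl3 (-4.80), Hoxd8 (-5.86), Kdm5d (3.50), Matn4 (10.41), Mid1ip1 (-6.01), Nnat (6.88) and Slc38a3 (-2.34). Among patterning and regional genes the effects differed for Hoxb6 (-1.99), Hoxb9 (-2.82), Nkx6-1 (3.77), Irx2 (-0.70) and Gata4 (-4.89). For Hoxb6, Hoxb9 and Nkx6-1 the embryonic KMF libraries are listed at 0, so these values do not rank the cocktails. Neural and glial genes with such a difference were Msi1 (0.62), Sox1 (-2.15), Sox9 (0.61), Cnp (0.80) and Pdgfra (1.82), and genes of the Notch and hedgehog pathways were Dll1 (1.5), Dll3 (1.24), Jag1 (-1.16), Nrarp (3.75), Evc (-1.21) and Evc2 (-3.05). In the glycolysis and hypoxia list they were Bnip3 (2.64), Egln3 (1.51), Slc16a3 (-5.20) and Slc2a1 (1.16), all but Slc16a3 with the larger deficit in KMF. Growth control was represented by Ccnd2 (-1.46), Sesn1 (0.75), Igfbp3 (-2.16) and Tgfbr2 (-1.05), and antigen presentation, Y-linked and factor genes by H2-T23 (4.02), Ddx3y (-1.07), Myc (-1.82) and Sox17 (-2.34). The remaining genes, most of them among the largest differences, were Dhrs3 (2.45), Rassf5 (3.61), Calca (-3.04), Fndc1 (-2.66), Pdgfd (-8.81), Rbm43 (-5.68), Syt13 (-4.67), Tuba1c (-4.46) and Zfp760 (-9.52). Where 1 line of a pair is listed at 0, the size of such a value depends on the 1 that was added before the logarithm.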

How the results depend on the processing

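The number of genes called for origin stayed within 1.5 times of the 4849 above under a pseudocount of 10 (5015), no filter on low values (4879), a mean of at least 50 (4572), the 8 libraries alone (5204), quantile normalisation (4875), median centring (4849), a robust variance prior (4826) and, chosen after seeing the data, centring within deciles of transcript length (5089). With the mean of each line as 1 sample it fell to 62, with 33 higher and 29 lower; this alternative has fewer samples, and 114 of 121 named genes lost their call. Leaving out 1 library at a time gave 4027 to 4574 calls, with 2117 to 2421 higher and 1894 to 2153 lower. Within BKF it gave 1348 to 2807, within KMF 3807 to 5427 and for the difference between cocktails 1355 to 2802, and the cause was not tested. It also moved the share of called genes with the sign of the passage difference from 82.7 to 86.4% and with that of the KF line minus the tail-tip 4F line at passage 8 from 21.2 to 24.7%. In these fits a line with 1 library is assumed to vary like the others. Of 121 named genes 9 lost the call in at least 1 of the 8, namely Efhc2, Hoxc6, Klf4, Mbd3l2, Olfr1437, Olfr1489, Ptch1, Slc16a3 and Stk26, and 0 reversed. Replicate numbers shared between lines did not pair libraries, since the correlations of replicate 1 minus replicate 2 between lines were -0.029 to 0.0454 over 6 pairs. With replicate number as a block the fit called 4526 genes, 2358 higher and 2168 lower, 1929 within BKF, 4866 within KMF and 1723 for the difference between cocktails. Hedgehog genes called higher fell to 4, and 6 named genes lost their call. Depth is unknown, so what low values can show is not known either. The alternative for counts was not run.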
